A study of Mus musculus with 16 samples.

Results

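Embryonic stem (ES) cells were compared with mouse embryonic fibroblasts (MEF) over all probes of an Illumina BeadChip expression array, with 4 arrays per group, which are 8 of the 16 arrays of a series on stepwise induction of pluripotency. Both groups were taken whole, by the cell type in the labels. The ES cells were of strain 129, carry the line name R26 in their titles, and grew with 15% serum and 10 ng/ml of the cytokine LIF on a feeder layer of MEF treated with mitomycin C. The MEF were of strain CD1 and grew in 10% serum without feeders or LIF, as far as the labels say. Every array held total RNA from its own dish. The dishes are labelled as independent, without saying what separated them, so p-values measure the spread between dishes. Strain, line, medium, feeders and cell type differ together between the groups and cannot be told apart. The other 8 arrays held an intermediate stage (OKM) and induced pluripotent (iPS) cells of strain CD1. They were normalized with the rest and counted in the filter and the choice of probe, and they entered the fit to estimate the spread.

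ES cells are grown from the inner cell mass of the blastocyst and keep the capacity to form all tissues of the embryo. A circuit of transcription factors around Pou5f1 (Oct4), Sox2 and Nanog holds them in that state, and in mouse cells LIF, acting through Stat3, helps to maintain it. Fibroblasts are mesenchymal cells that secrete and remodel the collagen-rich matrix of connective tissue, pull on it through actin and myosin, and divide slowly as they age in culture. ES cells grow as tight colonies with epithelial junctions, have a short G1 phase and divide fast.

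The labels were checked against defining markers. All 10 ES cell markers on the list were detected on all 4 ES arrays and on 0 of the 4 MEF arrays, where detected means a detection p-value under 0.01. Their summed level on the linear scale was 109528 to 121638 on the ES arrays, against 267 to 343 on the MEF arrays. The 12 fibroblast markers on the array summed to 4756 to 11896 on the ES arrays, against 97982 to 109609 on the MEF arrays. The 11 that were tested all fell, among them Thy1, a surface antigen of fibroblasts, at -3.43 ± 0.19 (SE; adjusted p = 9.45e-12), and the intermediate filament gene Vim, at -2.79 ± 0.20 (SE; adjusted p = 4.55e-10). The ES sums were 4.48% to 11.2% of the MEF mean, in dishes that also held MEF feeders, and the part of feeder RNA in the results was not tested. ES replicate 5 stood apart, with a fibroblast sum of 4756 while the other 3 ES arrays were at 10.6% of the MEF mean or more. It had 182 genes at least 2-fold below the mean of the other 3 ES arrays, which had 4 to 28 such genes each. For named genes whose call depended on it, and for some others, the change is given with and without it.

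Levels are given on the log2 scale of normalized intensity, array by array, in the order ES replicates 1, 2, 4 and 5 and MEF replicates 1 to 4. A change is the mean of the ES arrays minus the mean of the MEF arrays with its standard error (SE, n = 4 arrays each), tested with limma's moderated test and adjusted over all 9455 genes tested. A gene was called, and is said to have risen or fallen, where the change was 2-fold or more and the adjusted p below 0.05. Where no array of a group detected a gene, its level there has only a bound, and its fold carries the words "at least". Without background correction, the calls of Atm, Cbx8, Ccl3, Cdh2, Cdkn1b, Cdkn2b, Cldn1, Fgf2, Grem1, Gsc, Il1a, Il6st, Itga2, Itga3, Itga6, Itgb4, Jam2, Junb, Kdm5d, Oas2, Sox7, Sox9, Spry1, Tfap2a and Xist ended, each with its direction kept. Levels of different probes are not comparable with each other. For every gene whose array values are listed below, the ES and MEF arrays did not overlap.

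The profiles of the cell types lay far apart. Of the 9455 genes tested, 2286 were higher in ES cells (24.2%) and 2299 were lower (24.3%), so that 48.5% of the measured genes were called. These shares are the background for the counts of each list below. At least 8-fold differences numbered 363 higher (3.84%) and 444 lower (4.7%), which makes 807 in all (8.54%). That number was 348 without background correction, 1229 with an offset of 1 and 1261 in the authors' normalized table. At least 32-fold differences numbered 91 higher and 68 lower. Without the fold limit, 7725 genes passed (81.7%). The median change over all genes was 0.04, and 29.2% of genes lay within 0.5 log2 units of no change. The arrays of the groups did not overlap for 76% of genes, and for 4567 of the 4585 called genes. Across genes, which are not independent replicates, Pearson's r was 0.717 to 0.757 between ES and MEF arrays, against 0.984 to 0.995 among ES arrays and 0.993 to 0.996 among MEF arrays.

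**Figure D1:**
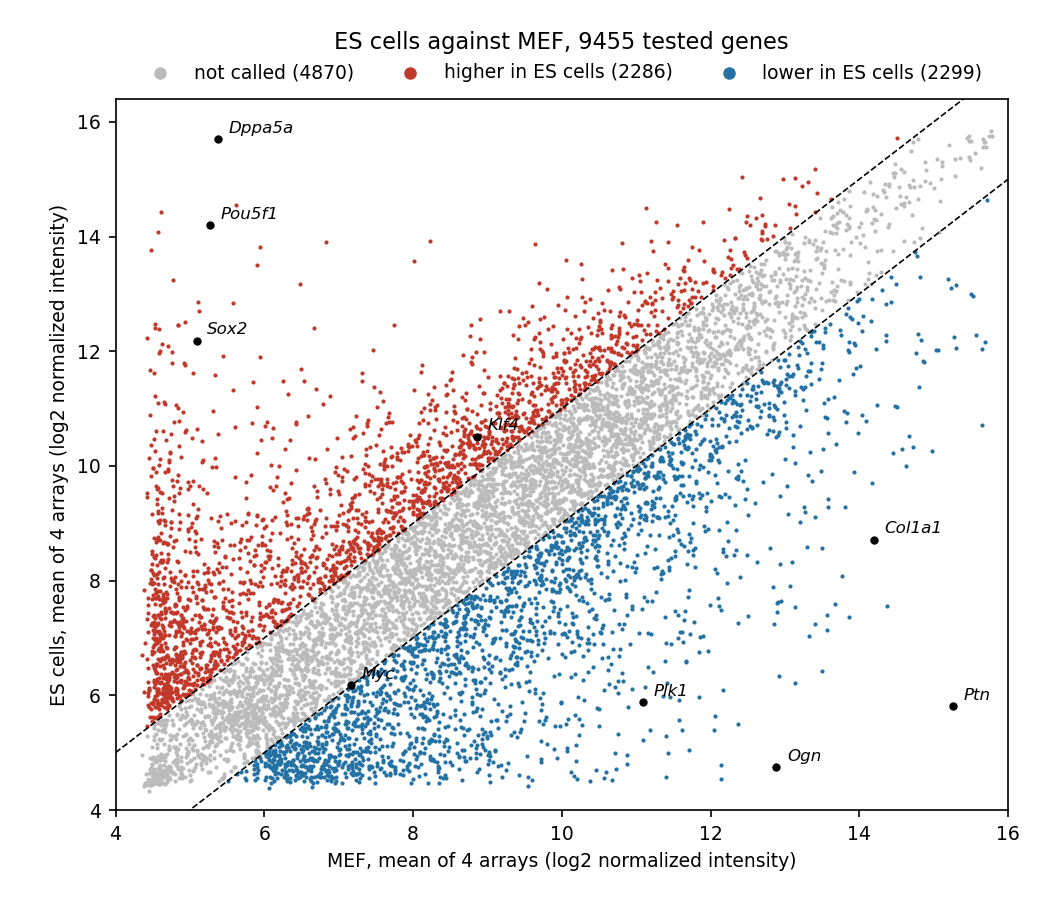
Mean log2 normalized intensity of 4 ES arrays (vertical axis) against that of 4 MEF arrays (horizontal axis) for the 9455 tested genes, coloured by call, with the 2-fold limits as dashed lines. The 2286 genes called higher in ES cells lie above the upper limit and the 2299 called lower lie below the lower limit, and named genes are labelled.

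Detection describes the same arrays without any fold change. Of the 16590 genes with a probe on the array, 6739 were detected on all 8 arrays (40.6%) and 6872 on none of them (41.4%). Genes detected on all ES arrays and no MEF array numbered 713 (4.30%), and genes detected on all MEF arrays and no ES array 542 (3.27%). These counts depend on the limit, and at a detection p under 0.001 they were 324 and 1305. Of the tested genes, through the probe that represents each, 717 were of the first kind (7.58%) and 548 of the other (5.8%). A gene dim in ES cells or MEF passed the filter through arrays where it was brighter, so counts of members that passed are not counts of all members. For such genes the filter favoured the direction of the call. In such bulk RNA, fewer cells of a type and less RNA per cell cannot be told apart.

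Leading the list of rises was Dppa5a, an RNA-binding protein gene of pluripotent cells, with levels of 15.75, 15.63, 15.66 and 15.77 on ES arrays, against 5.56, 5.64, 5.12 and 5.17 on MEF arrays. It was at least 987-fold higher (adjusted p = 8.49e-21), although its probe may also read near-identical copies of the gene. Esrrb, an orphan nuclear receptor of the pluripotency circuit, had 14.49, 14.76, 14.30 and 14.14 on ES arrays, against 4.52, 4.73, 4.52 and 4.68 on MEF arrays. It was at least 407-fold higher (adjusted p = 4.15e-20). Trh, the gene of thyrotropin-releasing hormone, was at least 320-fold higher and Dppa4, a chromatin protein gene, at least 259-fold higher. Upp1, which encodes the nucleoside enzyme uridine phosphorylase, was detected on 1 MEF array and rose by 8.93 ± 0.10 (SE; adjusted p = 8.49e-21). In none of these genes did any ES array come near a MEF array.

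Among the largest falls was Ptn. This gene of the growth factor pleiotrophin had 6.43, 5.86, 6.04 and 4.93 on ES arrays, against 15.23, 15.26, 15.21 and 15.35 on MEF arrays. Its change was -9.45 ± 0.21 (SE; adjusted p = 6.60e-17), and ES replicate 5 was the lowest of the ES arrays. Osteoglycin (Ogn), a small leucine-rich proteoglycan of connective tissue, had 4.54, 4.80, 5.03 and 4.60 on ES arrays, against 13.05, 12.74, 13.01 and 12.75 on MEF arrays, and was at least 149-fold lower in ES cells (adjusted p = 2.26e-17). Lgr5, a receptor for R-spondins, was at least 88.9-fold lower, Mylk, the myosin light chain kinase gene, at least 89.2-fold lower and Ldb2, a LIM-domain binding cofactor gene, at least 53.2-fold lower. Igfbp5, which binds insulin-like growth factors, changed by -7.07 ± 0.22 (SE; adjusted p = 5.87e-15). Other genes among the 20 largest falls were Mfap4 (-6.94) and Eln (-6.86) of elastic fibres, the cartilage and vessel protein gene Mgp (-6.82), and the protease-like gene Capn6 (-6.66). The alcohol dehydrogenase gene Adh1 was at least 54.3-fold lower. Mgp was -6.82 with all ES arrays and -6.08 without ES replicate 5, whose level of 5.34 lay below those of the other 3.

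Core pluripotency regulators rose together. Of 24 such genes listed, 22 were on the array and 19 passed the filter, of which 15 were higher and 0 lower in ES cells (highest adjusted p of a call 1.08e-08). Of the 19, 9 were detected on all ES arrays and no MEF array, beside 7.58% of all tested genes. For those 9 the filter favoured this direction. The median change of the 19 was 4.93, or 4.62 with undetected members at their bound, beside 0.04 for all tested genes. Pou5f1, the POU-domain factor at the centre of the circuit, had levels of 14.12, 14.24, 14.03 and 14.40 on ES arrays, against 4.95, 5.38, 4.96 and 5.77 on MEF arrays. It was at least 348-fold higher in ES cells (adjusted p = 1.98e-18), with every MEF array below detection. Sox2, its HMG-box partner, had 12.60, 12.61, 11.88 and 11.65 on ES arrays, against 5.24, 5.41, 4.63 and 5.10 on MEF arrays, and was at least 86.2-fold higher (adjusted p = 3.13e-15). Nanog, a homeobox gene, had 11.41, 12.09, 12.10 and 11.43 on ES arrays, against 4.88, 5.32, 4.85 and 4.67 on MEF arrays, and was at least 63.95-fold higher (adjusted p = 8.47e-15). The nearest ES and MEF arrays were separated by over 6 log2 units in each of these 3 genes. Zfp42 (Rex1), a zinc finger gene used as an ES cell marker, was at least 123-fold higher, the spalt-like factor gene Sall4 at least 73.9-fold and the kinase cofactor gene Tcl1 at least 41.04-fold.

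The reprogramming factors Klf4 and Myc differed far less than Pou5f1 and Sox2. Klf4, a zinc finger factor used in reprogramming, had 10.73, 10.73, 10.31 and 10.28 on ES arrays, against 8.71, 9.11, 8.76 and 8.86 on MEF arrays. It rose by 1.65 ± 0.15 (SE; adjusted p = 1.08e-08), and the arrays of the groups did not overlap. Relatives of Klf4 in the circuit, Klf5 and Klf2 rose by 4.23 and 2.56. Tbx3, a T-box factor gene, rose by 2.05, Gbx2, a homeobox target of LIF and Stat3, by 4.93, and Mybl2, a factor of proliferating cells, by 5.56. Myc, the remaining classic reprogramming factor, had 6.60, 6.43, 5.94 and 5.76 on ES arrays, against 7.06, 7.39, 7.0 and 7.20 on MEF arrays. Its change of -0.98 ± 0.20 (SE; adjusted p = 2.51e-04) missed the 2-fold limit, and the arrays did not overlap. It passed that limit when ES replicate 1 (change -1.12), ES replicate 2 (-1.07), MEF replicate 1 (-1.02) or MEF replicate 3 (-1.04) was left out. Stat3, the transducer of LIF, was not called either, at -0.93 ± 0.10 (SE; adjusted p = 7.13e-08).

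The octamer, to which Pou5f1 binds, was searched for in 250 bases before to 50 after each annotated start. ATGCAAA, the core of the octamer, was looked for on both strands. The windows of 3 core regulators that hold it are shown because these genes carried the result above. They are from RefSeq for assembly GRCm38.p6 and end at the base before the start, with the octamer in capitals, on whichever strand it lies. The match is a description of these letters and no evidence of binding. The Nanog window (chr6:122707239-122707488, plus strand) holds it 75 bases upstream of the start, as does the gene's other annotated window. The Sox2 window (chr3:34649745-34649994, plus strand) holds it 99 bases upstream, and the Zfp42 window (chr8:43307010-43307259, minus strand) 185 bases upstream. Of the 9871 windows of the 7641 tested genes that RefSeq covers here, 3.70% held the octamer. Among the 200 largest rises it was in 9.41% of 202 windows, and among the 200 largest falls in 5.23% of 172 windows.
Nanog: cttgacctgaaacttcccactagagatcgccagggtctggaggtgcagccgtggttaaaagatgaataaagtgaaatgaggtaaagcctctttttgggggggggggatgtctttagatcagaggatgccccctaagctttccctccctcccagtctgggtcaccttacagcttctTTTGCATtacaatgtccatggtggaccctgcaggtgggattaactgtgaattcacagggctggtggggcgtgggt
Sox2: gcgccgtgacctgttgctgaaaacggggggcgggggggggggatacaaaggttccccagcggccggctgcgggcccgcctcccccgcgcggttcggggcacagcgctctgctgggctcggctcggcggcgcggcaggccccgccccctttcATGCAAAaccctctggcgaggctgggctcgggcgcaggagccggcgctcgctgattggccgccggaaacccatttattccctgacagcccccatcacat
Zfp42: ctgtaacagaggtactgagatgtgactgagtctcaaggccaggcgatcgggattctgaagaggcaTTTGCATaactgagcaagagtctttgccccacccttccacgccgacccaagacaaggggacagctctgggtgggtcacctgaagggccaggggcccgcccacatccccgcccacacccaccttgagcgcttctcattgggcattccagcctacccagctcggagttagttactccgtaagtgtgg

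Of 30 ES cell associated genes, 25 were on the array and 24 passed the filter on detection, and those 24 were called higher (a gene that passed through its ES and iPS arrays alone had to be brighter there; highest adjusted p 5.18e-06; median 5.33, or 4.26 with undetected members at their bound). Dnmt3l, a catalytically inactive partner of the DNA methyltransferases, had 13.99, 13.91, 13.74 and 13.66 on ES arrays, against 5.74, 6.08, 5.90 and 6.07 on MEF arrays, a change of 7.87 ± 0.15 (SE; adjusted p = 9.30e-18). Utf1, a chromatin-bound coactivator gene, was at least 75.8-fold higher and Fbxo15, an F-box gene and early reporter of reprogramming, at least 108-fold. Smaller bounds were found for Lin28a (at least 11.1-fold), an RNA-binding inhibitor of let-7 processing, Fgf4 (at least 14.8-fold), a growth factor made by ES cells, and Eras (at least 17.8-fold), an ES cell form of Ras. Alpl, the alkaline phosphatase gene behind the classic stain for ES colonies, had 10.34, 10.45, 10.01 and 10.11 on ES arrays, against 5.65, 6.07, 5.64 and 6.27 on MEF arrays, and rose by 4.32 ± 0.14 (SE; adjusted p = 7.59e-15). The smallest rise on the list was that of the junction gene Jam2, at 1.29.

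**Figure D2:**
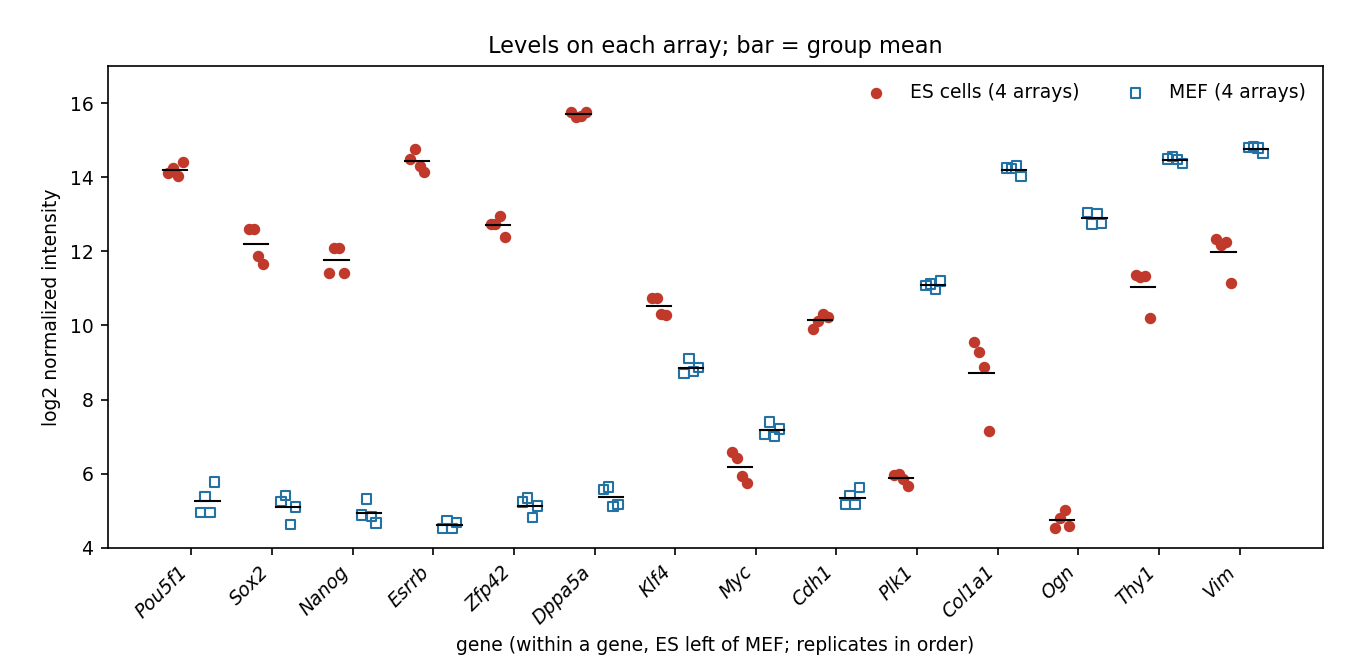
Log2 normalized intensity on each of the 4 ES arrays (filled circles, left of each pair) and the 4 MEF arrays (open squares, right of each pair) for 14 genes, with the group mean as a bar. Pluripotency genes such as Pou5f1 and Nanog sit over 6 log2 units higher on ES arrays, Klf4 and Myc lie close together, and for Col1a1, Thy1 and Vim the ES replicate 5 circle lies below those of the other 3 ES arrays.

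Signalling genes split by ligand family. In the Nodal branch of the TGF-beta superfamily, which acts early in the embryo, ligands and feedback inhibitors rose. Nodal itself had 9.57, 9.90, 9.52 and 9.12 on ES arrays, against 4.58, 4.80, 4.87 and 5.19 on MEF arrays, and was at least 13.7-fold higher (adjusted p = 3.70e-14). The related ligand Gdf3 was at least 58.3-fold higher and the Nodal coreceptor Tdgf1 (Cripto) at least 4.46-fold. Lefty1, a secreted inhibitor of Nodal, had 13.60, 13.66, 13.56 and 12.12 on ES arrays, against 4.67, 4.71, 4.74 and 4.96 on MEF arrays, and was at least 179-fold higher. Lefty2, the second inhibitor, was at least 105-fold higher. The activin receptor gene Acvr2b, which Nodal also uses, rose by 4.55 ± 0.10 (SE; adjusted p = 3.98e-17).

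Ligands and receptors of TGF-beta proper were lower, apart from Tgfb1. Tgfb3 had 6.30, 6.13, 5.99 and 5.24 on ES arrays, against 11.42, 11.73, 11.66 and 11.48 on MEF arrays, a change of -5.66 ± 0.17 (SE; adjusted p = 3.77e-15). Tgfb2 was at least 6.84-fold lower, and Tgfb1 was not called, at -0.64 ± 0.16 (SE; adjusted p = 0.00121). Tgfbr2, the ligand-binding receptor, had 7.90, 7.81, 8.11 and 6.59 on ES arrays, against 12.99, 12.83, 13.02 and 12.72 on MEF arrays. It changed by -5.29 ± 0.22 (SE; adjusted p = 2.80e-13), and ES replicate 5 was the lowest ES array. The coreceptor Tgfbr3 changed by -3.37 and the kinase-carrying partner Tgfbr1 by -1.20. Follistatin (Fst), an inhibitor of activin, fell as well, at -3.06, and so did the related gene Fstl1, at -3.47. Over the whole TGF-beta list, 33 genes were named, 30 were on the array and 25 tested, of which 8 were higher and 11 lower (highest adjusted p 7.51e-07; median -0.75). The shares among all tested genes were 24.2% higher and 24.3% lower.

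**Figure D3:**
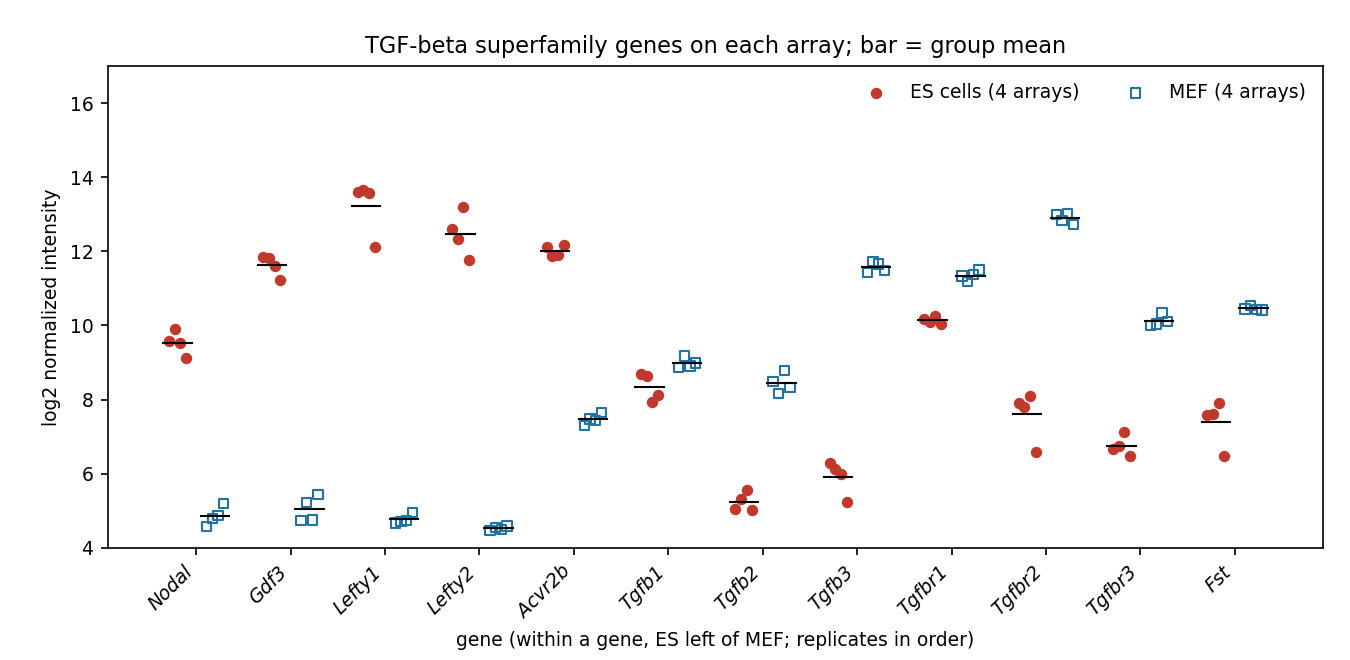
Log2 normalized intensity on the 4 ES arrays (filled circles, left) and the 4 MEF arrays (open squares, right) for ligands, inhibitors and receptors of the TGF-beta superfamily, with group means as bars. Nodal, Gdf3, Lefty1, Lefty2 and Acvr2b lie higher on every ES array, and Tgfb2, Tgfb3, Tgfbr1, Tgfbr2 and Tgfbr3 lie lower on every ES array.

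BMP signalling genes were mostly lower. Of 27 listed, 20 were tested, 1 was higher and 13 were lower (highest adjusted p 0.00113; median -1.35, or -1.09 with undetected members at their bound), and the 13 became 8 without background correction. Bmp7 was the exception, at least 4.90-fold higher in ES cells. Of the Id genes, direct targets of BMP signalling, those called were lower in ES cells, with Id3 at -2.23 ± 0.18 (SE; adjusted p = 1.88e-09) and Id4 at least 4.48-fold lower, while Id1 was not called, at -0.78 ± 0.11 (SE; adjusted p = 5.47e-06). The BMP-binding protein gene Bmper changed by -3.49. Grem1, a secreted BMP antagonist, was called lower at -1.16 and lost its call without ES replicate 5, at -0.75.

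In the FGF and LIF list, all 33 genes were on the array and 27 were tested, with 12 higher and 7 lower (highest adjusted p 3.79e-05; median 0.36, or 0.13 with undetected members at their bound). The shares among all tested genes were 24.2% higher and 24.3% lower. FGF ligands went both ways. Fgf17 was at least 19.8-fold and Fgf15 at least 4.31-fold higher in ES cells, besides Fgf4. Fgf5, a ligand of the primed epiblast, was at least 3.04-fold lower and Fgf2 at least 1.60-fold lower, and Fgf7 and Fgf10, which fibroblasts send to epithelia, changed by -1.96 and -1.79. The ETS factor genes Etv4 and Etv5 rose by 3.32 and 2.14, the feedback inhibitor gene Spry4 by 2.67 and the phosphatase gene Dusp4 by 1.70. Spry1 was at least 1.46-fold lower, and Dusp6 was not called (-0.21). Socs3, a feedback inhibitor of cytokine receptors, had 12.96, 13.08, 13.03 and 13.24 on ES arrays, against 10.60, 10.60, 10.64 and 10.67 on MEF arrays, a change of 2.45 ± 0.09 (SE; adjusted p = 4.08e-14). The kinase gene Pim1 was at least 4.68-fold higher at its brighter probe, while its other kept probe differed by 0.05, and Pim3 rose by 3.66. The receptor gene Il6st (gp130) rose by 1.03, and lost its call without MEF replicate 2, at 0.91, while the kinase gene Jak2 changed by -2.71.

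Wnt pathway genes were lower where they were called, with 2 exceptions. Of 47 listed, 42 were on the array and 27 tested, with 2 higher and 13 lower (highest adjusted p 7.15e-07; median -0.96, or -0.56 with undetected members at their bound). Lgr5, described above, was joined by its ligand gene Rspo3, with 6.21, 5.88, 6.04 and 4.88 on ES arrays, against 10.45, 10.34, 10.64 and 10.57 on MEF arrays, a change of -4.75 ± 0.25 (SE; adjusted p = 6.39e-12). ES replicate 5 again lay below the other 3 ES arrays. The receptor Fzd2 changed by -4.83, the secreted Dkk3 by -4.30 and the ligand Wnt5a by -3.58. Fzd10 and the ligand Wnt7b rose, by at least 4.30-fold and 4.60-fold. Axin2, a common readout of beta-catenin activity, was not called, at 0.84 ± 0.15 (SE; adjusted p = 4.47e-05).

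Growth factor and receptor kinase genes were called lower more often than higher. Among all tested genes, 24.2% were called higher and 24.3% lower. Of 39 listed, 34 were on the array and 30 tested, with 6 higher and 17 lower (highest adjusted p 2.79e-06; median -1.65). Pdgfrb, a PDGF receptor of mesenchymal cells, had 5.56, 5.47, 5.69 and 5.14 on ES arrays, against 9.89, 10.05, 10.02 and 9.65 on MEF arrays. It changed by -4.44 ± 0.12 (SE; adjusted p = 1.16e-15) and was detected on 1 ES array. Its partner Pdgfra changed by -3.95, the EGF receptor Egfr by -4.03 and Igf1 by -3.95. The PDGF ligand Pdgfb rose by 1.64 and Epha2, an ephrin receptor, by 2.63. Mdk, which encodes midkine, the relative of the pleiotrophin whose gene Ptn fell most of all, rose by 1.37 ± 0.09 (SE; adjusted p = 1.68e-10).

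Junction and epithelial genes were higher in ES cells. Of 46 listed, 40 were on the array and 35 tested, with 29 higher and 1 lower (highest adjusted p 6.89e-06; median 2.51, or 1.95 with undetected members at their bound). Of the 35, 20 were detected on all ES arrays and no MEF array, beside 7.58% of all tested genes. Such genes passed the filter through arrays where they were brighter, so the filter favoured this direction. Cdh1, which encodes E-cadherin, the adhesion protein of ES colonies, had 9.90, 10.13, 10.30 and 10.23 on ES arrays, against 5.16, 5.41, 5.18 and 5.63 on MEF arrays, and was at least 20.9-fold higher (adjusted p = 6.44e-16). The tight junction genes Cldn4 and Cldn6 were at least 101-fold and 80.6-fold higher. Esrp1, the splicing regulator of epithelial cells, was at least 43.99-fold higher, the ETS factor gene Elf3 at least 22.6-fold and the sorting adaptor gene Ap1m2 at least 14.4-fold. Cldn1 went the other way and was at least 2.54-fold lower. In a comparison made after the values were seen, N-cadherin (Cdh2) was also lower, by at least 2.21-fold.

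Transcription factors of mesenchyme fell as a group, and none rose. Of 42 listed, 38 were on the array and 27 tested, with 0 higher and 23 lower (highest adjusted p 6.0e-08; median -3.04, or -2.55 with undetected members at their bound). Of the 27, 8 were detected on all MEF arrays and no ES array, beside 5.8% of all tested genes. For those 8 the filter favoured this direction. Osr2, an odd-skipped factor gene, had 5.06, 5.47, 5.36 and 5.70 on ES arrays, against 11.65, 11.63, 11.58 and 11.61 on MEF arrays, a change of -6.22 ± 0.13 (SE; adjusted p = 1.83e-17). Nfix, a nuclear factor I gene, changed by -5.45 ± 0.24 (SE; adjusted p = 5.02e-13), Meis1, a cofactor of Hox proteins, by -4.71, and Nfib was at least 16.6-fold lower. The markers Prrx1 and Twist1 changed by -3.40 and -3.37. Zeb1 and Zeb2, repressors of E-cadherin and chosen after their values were seen, changed by -2.78 and -3.33.

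Hox genes, which record position along the body axis, were low or undetected in ES cells. Of 39 listed, 38 were on the array and 25 tested, with 0 higher and 20 lower (highest adjusted p 1.49e-09; median -2.38, or -1.49 with undetected members at their bound). Of the 25, 13 were detected on all MEF arrays and no ES array, beside 5.8% of all tested genes. Such genes passed the filter through arrays where they were brighter, so the filter favoured this direction. Hoxd8 had 4.90, 4.86, 5.12 and 4.50 on ES arrays, against 10.10, 9.46, 9.76 and 9.54 on MEF arrays, and was at least 16.6-fold lower (adjusted p = 6.26e-15). Hoxc9 had 6.39, 6.13, 6.74 and 5.76 on ES arrays, against 10.65, 10.82, 10.70 and 10.87 on MEF arrays, a change of -4.50 ± 0.15 (SE; adjusted p = 1.42e-14). Genes of all 4 clusters were among those lower, such as Hoxa7 (-3.82), Hoxb7 (-3.56), Hoxc6 (-3.78) and Hoxc10 (-3.99).

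Most tested collagen genes were lower in ES cells. Of 32 listed, 29 were on the array and 24 tested, with 1 higher and 18 lower (highest adjusted p 1.70e-08; median -2.61, or -1.84 with undetected members at their bound). Of the 24, 10 were detected on all MEF arrays and no ES array, beside 5.8% of all tested genes. For those 10 the filter favoured this direction. Col1a1, the main chain of fibrillar collagen I, had 9.54, 9.28, 8.88 and 7.16 on ES arrays, against 14.24, 14.23, 14.31 and 14.02 on MEF arrays. It changed by -5.49 ± 0.34 (SE; adjusted p = 5.02e-11), and by -4.97 without ES replicate 5, the lowest ES array. Col3a1, of the collagen III that accompanies it, had 4.54, 4.66, 4.79 and 4.66 on ES arrays, against 10.59, 10.60, 10.72 and 10.48 on MEF arrays, and was at least 30.5-fold lower (adjusted p = 6.70e-18). Fibril, network and beaded-filament collagens all contributed, with Col5a1 at -4.27, the basement membrane chain Col4a5 at least 17.5-fold lower, and Col6a1 and Col6a2 at -4.47 and -4.70. Col9a2, of a cartilage collagen, was the exception, at least 5.61-fold higher in ES cells.

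Elastic fibre, proteoglycan and matricellular genes fell almost without exception. Of 47 listed, 44 were on the array and 37 tested, with 1 higher and 35 lower (highest adjusted p 2.65e-05; median -3.21). Elastin (Eln) had 5.68, 5.54, 5.38 and 5.41 on ES arrays, against 12.31, 12.36, 12.55 and 12.23 on MEF arrays, a change of -6.86 ± 0.14 (SE; adjusted p = 1.15e-17). Lumican (Lum), a proteoglycan that spaces collagen fibrils, had 7.98, 7.96, 7.79 and 5.21 on ES arrays, against 13.52, 13.32, 13.28 and 13.52 on MEF arrays. It changed by -6.17 ± 0.42 (SE; adjusted p = 2.16e-10), and by -5.50 without ES replicate 5. The matricellular gene Ccn4 changed by -6.50, and the microfibril gene Mfap4 by -6.94. Ltbp4, which binds latent TGF-beta, went the other way at 2.0 ± 0.16 (SE; adjusted p = 1.98e-09). The median deviation of ES replicate 5 over the 37 genes was -0.39.

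Enzymes that cut the matrix, and their inhibitors, were mostly lower too. Of 35 listed, 32 were on the array and 29 tested, with 2 higher and 21 lower (highest adjusted p 5.70e-07; median -2.43). Adamts1, a metalloprotease gene, had 4.90, 5.18, 4.67 and 5.08 on ES arrays, against 11.06, 10.99, 10.71 and 10.76 on MEF arrays, and was at least 37.1-fold lower (adjusted p = 1.54e-17). Timp3, an inhibitor of metalloproteases, changed by -5.69 ± 0.15 (SE; adjusted p = 8.80e-16), cathepsin K (Ctsk) by -5.59 ± 0.28 (SE; adjusted p = 3.03e-12) and the membrane protease Mmp14 by -4.39 ± 0.13 (SE; adjusted p = 4.08e-15). The 2 that rose were Mmp10, at 3.27 ± 0.25 (SE; adjusted p = 1.48e-09), and Mmp9, at 1.47 ± 0.13 (SE; adjusted p = 6.37e-09). Mmp3 was not called with all ES arrays, at 0.92, and was called without ES replicate 5, at 1.54. Over the 29 genes, that array had a median deviation of -0.51 from the other 3 ES arrays, beside -1.11 for the fibroblast markers.

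The TATA box, TATAAA on both strands, was in 17.4% of windows of the 200 largest falls, against 12.9% of those of the 200 largest rises and 7.82% of all 9871 windows. Windows of 2 matrix genes that hold it on either strand are shown because both genes were undetected on every ES array. The Ogn window (chr13:49607765-49608014, plus strand) has it 229 bases upstream of the start, as overlapping matches on both strands. The Col3a1 window (chr1:45311288-45311537, plus strand) has it 117 bases upstream. That window also holds the octamer described above, left in lower case, and Col3a1 is among the 200 largest falls. Capitals mark the TATA box letters, which at these distances are no statement about where transcription starts.
Ogn: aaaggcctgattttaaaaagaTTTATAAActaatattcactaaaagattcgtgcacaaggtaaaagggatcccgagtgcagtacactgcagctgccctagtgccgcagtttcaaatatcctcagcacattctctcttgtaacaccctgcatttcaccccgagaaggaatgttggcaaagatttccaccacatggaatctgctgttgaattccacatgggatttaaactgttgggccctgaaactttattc
Col3a1: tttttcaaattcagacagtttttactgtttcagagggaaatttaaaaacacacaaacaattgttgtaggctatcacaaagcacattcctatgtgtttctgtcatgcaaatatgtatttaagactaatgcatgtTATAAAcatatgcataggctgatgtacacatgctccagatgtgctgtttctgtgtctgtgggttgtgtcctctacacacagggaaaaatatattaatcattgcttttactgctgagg

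Integrins and focal adhesion genes, which tie the matrix to actin, were called in both directions. Among all tested genes, 24.2% were higher and 24.3% lower. Of 35 listed, 30 were on the array and 22 tested, with 5 higher and 12 lower (highest adjusted p 3.21e-05; median -1.83, or -1.54 with undetected members at their bound), and the 5 became 1 without background correction. Itga11, a collagen-binding integrin of fibroblasts, had 7.99, 7.75, 8.12 and 6.50 on ES arrays, against 13.74, 13.56, 13.71 and 13.67 on MEF arrays, a change of -6.08 ± 0.26 (SE; adjusted p = 3.65e-13). The adaptor gene Parva changed by -4.32, zyxin (Zyx) by -3.03 and vinculin (Vcl) by -3.01. Itgb7 had 9.63, 9.48, 9.17 and 9.82 on ES arrays, against 4.46, 4.47, 4.36 and 4.39 on MEF arrays, and was at least 13.6-fold higher (adjusted p = 2.79e-16). Of the other 4 that rose, the laminin-binding Itga6 was at least 1.40-fold and Itga2 at least 1.61-fold higher, and the others lay at the limit. Itga3 rose by 1.10 but lost its call without ES replicate 5, at 0.94. Itgb4 rose by 1.03 and lost its call, at 0.99, without ES replicate 1, MEF replicate 1 or MEF replicate 2.

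Smooth muscle type contractile genes were lower where they were called, apart from Csrp2. Of 30 listed, 25 were on the array and 22 tested, with 1 higher and 18 lower (highest adjusted p 9.69e-08; median -1.75, or -1.70 with undetected members at their bound). Mylk had 4.92, 4.82, 4.67 and 4.72 on ES arrays, against 12.17, 12.17, 12.09 and 12.15 on MEF arrays. The enteric actin gene Actg2 had 7.28, 6.98, 7.21 and 6.70 on ES arrays, against 13.34, 13.34, 13.33 and 13.28 on MEF arrays, a change of -6.28 ± 0.13 (SE; adjusted p = 1.32e-17). Transgelin (Tagln) changed by -4.66 ± 0.12 (SE; adjusted p = 5.24e-16) and tropomyosin Tpm1 by -3.43, while the smooth muscle myosin gene Myh11 was at least 7.99-fold lower. The LIM protein gene Csrp2 rose by 1.65 ± 0.07 (SE; adjusted p = 7.89e-13). Srf, the factor that binds CArG boxes in many of these genes, changed by -1.54 ± 0.11 (SE; adjusted p = 2.76e-10). Its other kept probe differed by 0.33, and the mean of its probes, at -0.61, was not called.

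The CArG box, searched for on both strands, was in 3.49% of windows of the 200 largest falls (6 windows), against 0.99% of those of the 200 largest rises (2 windows) and 1.30% of all windows. The window of Vcl, a focal adhesion gene that fell but is not among the 200 largest falls, is shown as an example (chr14:20929148-20929397, plus strand). It holds the CArG box, in capitals, 227 bases upstream of the start.
Vcl: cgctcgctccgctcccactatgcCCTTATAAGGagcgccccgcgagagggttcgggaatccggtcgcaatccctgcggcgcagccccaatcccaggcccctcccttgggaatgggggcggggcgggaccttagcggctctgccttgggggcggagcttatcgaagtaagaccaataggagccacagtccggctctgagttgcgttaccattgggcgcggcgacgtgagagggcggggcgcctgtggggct

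Genes of the annexin, S100, galectin and caveola list, which code for membrane-binding, calcium-binding and sugar-binding proteins, were lower in 22 and higher in 1 of 32 tested (33 listed, all on the array; highest adjusted p 3.78e-04; median -2.12). The caveola coat gene Cavin3 had 8.12, 7.73, 8.02 and 6.61 on ES arrays, against 12.97, 13.02, 12.82 and 12.83 on MEF arrays, a change of -5.29 ± 0.22 (SE; adjusted p = 3.23e-13). ES replicate 5 was lowest here as well, with a median deviation of -0.49 over the list. Caveolin (Cav1) changed by -3.86, Anxa1 was at least 7.77-fold lower, and the giant scaffold gene Ahnak changed by -4.04. S100a8, a protein of neutrophils and inflamed epithelia, was the exception, at least 3.11-fold higher in ES cells. S100a6 changed by -1.09 with all arrays and lost its call without ES replicate 5, at -0.95.

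**Figure D4:**
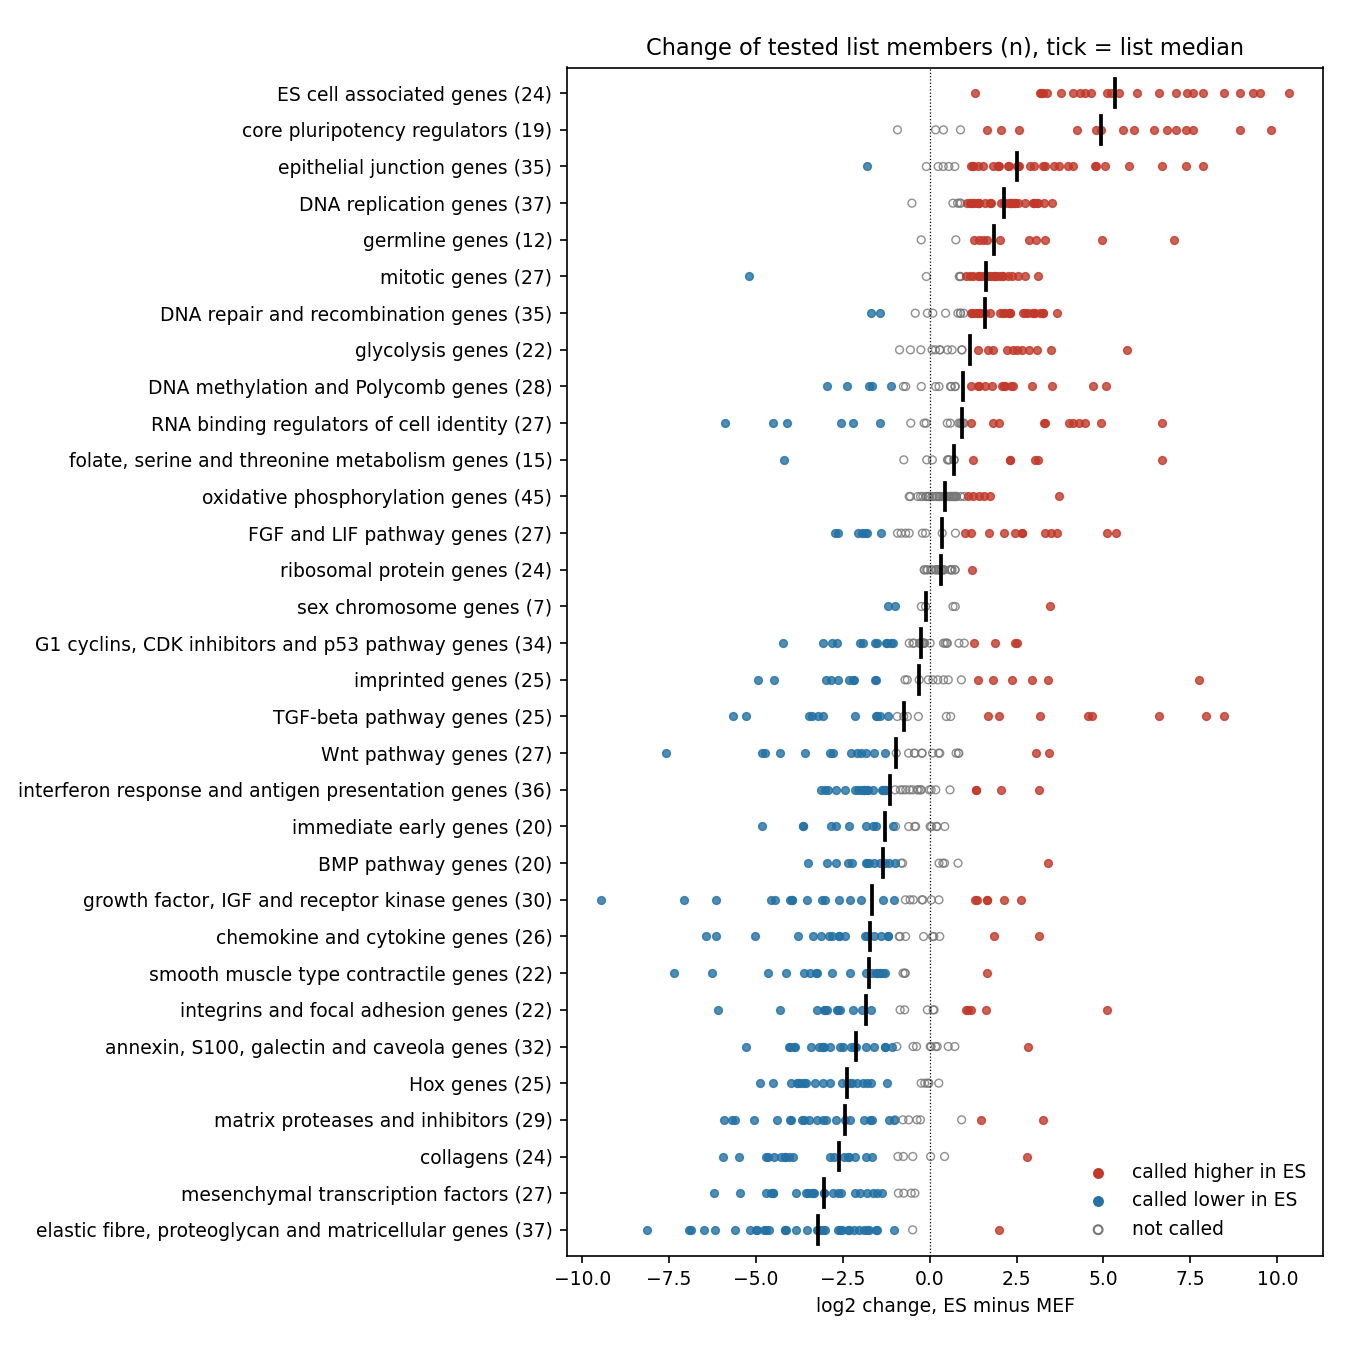
Log2 change (ES minus MEF) of every tested gene of the 32 pathway lists, 1 row per list, ordered by the list median (vertical tick), with called genes filled and uncalled genes open. ES cell associated genes and core pluripotency regulators lie at the top with medians of 5.33 and 4.93, ribosomal protein genes lie near 0, and elastic fibre genes lie at the bottom with a median of -3.21.

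DNA replication genes were higher in ES cells without exception among the calls. Of 49 listed, 45 were on the array and 37 tested, with 32 higher and 0 lower (highest adjusted p 0.00226; median 2.12). Mcm10, which helps to activate the replicative helicase, had 12.72, 12.82, 12.72 and 12.53 on ES arrays, against 9.12, 9.19, 9.15 and 9.22 on MEF arrays, a change of 3.53 ± 0.09 (SE; adjusted p = 2.90e-16). The licensing factor gene Cdt1 rose by 3.29, the ligase gene Lig1 by 3.11 and the polymerase subunit gene Pold2 by 3.09. Helicase subunits Mcm3 and Mcm5 rose by 3.01 and 2.99.

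Mitotic genes rose with 1 large exception. Of 40 listed, 36 were on the array and 27 tested, with 22 higher and 1 lower (highest adjusted p 5.98e-04; median 1.63). Espl1, the separase gene, rose by 3.10 ± 0.11 (SE; adjusted p = 5.17e-14), the spindle checkpoint kinase gene Bub1b by 2.55 and topoisomerase Top2a by 2.26. Plk1, a kinase needed for mitosis, had 5.96, 6.0, 5.87 and 5.67 on ES arrays, against 11.08, 11.12, 10.96 and 11.20 on MEF arrays. Its change was -5.21 ± 0.09 (SE; adjusted p = 2.02e-18), against the direction of every other called mitotic gene. It was read by a single kept probe, whose mean was 12.03 in iPS cells and 11.66 in OKM cells, both of strain CD1 like the MEF. ES cells were the only group of strain 129, and whether the probe matches that strain's sequence was not tested.

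Genes of G1 control were called in both directions, beside 24.2% higher and 24.3% lower among all tested genes. In the list of G1 cyclins, inhibitors of cyclin-dependent kinases and the p53 pathway, 41 were named, 38 were on the array and 34 tested, with 4 higher and 12 lower (highest adjusted p 9.14e-06; median -0.26). Ccnd2, a D-type cyclin gene, had 8.74, 8.17, 8.87 and 8.50 on ES arrays, against 12.83, 12.73, 12.80 and 12.82 on MEF arrays, a change of -4.23 ± 0.16 (SE; adjusted p = 7.78e-14). Of the inhibitors, Cdkn2c changed by -2.68, Cdkn2b was at least 2.24-fold lower, and Cdkn2a, the senescence gene, changed by -1.93. Ccne1, the cyclin that drives entry into S phase, rose by 2.50 ± 0.11 (SE; adjusted p = 7.02e-13) and E2f4 by 2.45. Cdkn1b was called lower, at -1.12, and lost its call without ES replicate 5, at -0.97.

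Repair and recombination genes were mostly higher. Of 48 listed, 42 were on the array and 35 tested, with 25 higher and 2 lower (highest adjusted p 1.88e-06; median 1.60, or 1.53 with undetected members at their bound). Ung, which removes uracil from DNA, had 12.44, 12.31, 12.50 and 12.56 on ES arrays, against 8.64, 8.96, 8.63 and 8.88 on MEF arrays, a change of 3.68 ± 0.09 (SE; adjusted p = 3.01e-16). The recombination gene Rad54b rose by 3.26, the Fanconi anaemia gene Fancd2 by 3.25, and the checkpoint kinase gene Chek1 was at least 5.10-fold higher. The 2 that fell were Xpa, of nucleotide excision repair, at -1.70 ± 0.17 (SE; adjusted p = 5.90e-08), and the damage kinase gene Atm, at -1.42 ± 0.14 (SE; adjusted p = 4.56e-08).

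Glycolysis genes were higher where they were called. Of 27 listed, 24 were on the array and 22 tested, with 11 higher and 0 lower (highest adjusted p 5.35e-09; median 1.16). Slc2a3, a high-affinity glucose transporter gene, had 13.94, 13.93, 13.88 and 13.93 on ES arrays, against 8.09, 8.21, 8.18 and 8.46 on MEF arrays, a change of 5.69 ± 0.10 (SE; adjusted p = 3.61e-18). Hexokinase Hk2 rose by 3.09 ± 0.11 (SE; adjusted p = 2.06e-14), aldolase Aldoc by 3.48 and Pdk1, which holds pyruvate out of the mitochondrion, by 2.86. ES replicate 5 lay above the other 3 ES arrays by a median of 0.27 log2 units over the 22 genes. Of oxidative phosphorylation genes, 6 of 45 tested were higher, below the share of 24.2% among all tested genes, and 0 were lower (49 listed, 47 on the array; highest adjusted p 0.0171; median 0.45). The largest rise was that of Cox7a1, a subunit isoform of heart and muscle, at 3.73 ± 0.16 (SE; adjusted p = 3.30e-13). For the smallest rises, at 1.09 and 1.26, the ES and MEF arrays overlapped. Another kept probe of a gene counted as uncalled was at -2.46.

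Folate, serine and threonine metabolism genes showed large single changes. Of 24 listed, 19 were on the array and 15 tested, with 6 higher and 1 lower (highest adjusted p 1.70e-05; median 0.69). Gldc, the glycine-cleaving decarboxylase gene, had 13.26, 13.29, 13.16 and 12.95 on ES arrays, against 6.48, 6.42, 6.53 and 6.48 on MEF arrays, a change of 6.69 ± 0.10 (SE; adjusted p = 5.32e-19). The cytosolic serine enzyme Shmt1 rose by 3.10 and Cbs, which starts the path from homocysteine to cysteine, was at least 3.74-fold higher. Aldh1l2, a mitochondrial folate enzyme, went the other way, with 7.79, 7.87, 7.79 and 6.45 on ES arrays, against 11.81, 11.56, 11.67 and 11.57 on MEF arrays, a change of -4.18 ± 0.23 (SE; adjusted p = 1.46e-11).

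DNA methylation and Polycomb genes were higher in 14 and lower in 5 of 28 tested (43 listed, 37 on the array; highest adjusted p 2.14e-05; median 0.95). The de novo methyltransferase gene Dnmt3b had 12.51, 12.34, 12.49 and 12.48 on ES arrays, against 7.65, 7.69, 7.61 and 8.06 on MEF arrays, a change of 4.71 ± 0.11 (SE; adjusted p = 6.07e-17). Of the complex that methylates histone H3, the subunit gene Mtf2 rose by 3.50. In values chosen after they were seen, Ezh2, its enzyme, was at 2.17, Eed at 2.12 and Suz12 at 1.79, while Aebp2 (-0.24), Phf19 (0.27) and Rbbp7 (0.73) were not called. Subunits of the other Polycomb complex were divided. Cbx7 was at least 30.5-fold higher and Phc1 rose by 2.95, whereas Bmi1 had 5.80, 5.99, 5.92 and 5.67 on ES arrays, against 8.75, 8.82, 8.76 and 8.85 on MEF arrays, a change of -2.95 ± 0.11 (SE; adjusted p = 6.59e-14), with Phc2 at -1.74 and Cbx8 at -1.65.

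Imprinted genes, expressed from 1 parental copy, had no common direction, with 6 higher and 10 lower of 25 tested (45 listed, 36 on the array; highest adjusted p 4.94e-08; median -0.30). The shares among all tested genes were 24.2% higher and 24.3% lower. Igf2, a fetal growth factor, had 10.92, 10.75, 10.89 and 10.26 on ES arrays, against 15.51, 15.68, 15.70 and 15.72 on MEF arrays, a change of -4.95 ± 0.12 (SE; adjusted p = 2.90e-16). Dlk1, a fetal membrane protein gene, changed by -4.47 ± 0.15 (SE; adjusted p = 1.92e-14) and Peg3 by -2.64. Phlda2, a brake on placental growth, was at least 138-fold higher in ES cells, and Snrpn rose by 2.36 ± 0.12 (SE; adjusted p = 2.44e-12). Mkrn3, a neighbour of Snrpn in the same imprinted domain, rose by 2.94, while Ndn of that domain changed by -2.98.

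Sex chromosome genes were read as a check on the animals behind the cells. Of 13 listed, 11 were on the array and 7 tested. Xist, the RNA of the inactive X, had 4.89, 4.70, 4.91 and 4.77 on ES arrays, against 6.01, 5.81, 6.05 and 6.17 on MEF arrays, and was at least 1.27-fold lower in ES cells (adjusted p = 1.83e-09), a call that ended without background correction. Eif2s3y, a Y-linked gene, had 7.32, 7.91, 8.47 and 8.06 on ES arrays, against 4.48, 4.55, 4.51 and 4.41 on MEF arrays, and was at least 4.54-fold higher (adjusted p = 1.32e-12). Kdm5d, also Y-linked, passed as lower (adjusted p = 0.00182), but 0 of 4 ES and 1 of 4 MEF arrays detected it, so no fold is given, and the call was lost without MEF replicate 1, MEF replicate 2 or ES replicate 2. The labels give no sex, and sex cannot be told apart from strain, line and cell type here. Uty (-0.24), Ddx3x (-0.12), Kdm6a (0.67) and Eif2s3x (0.73) were not called.

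Germline genes, many of them silenced by DNA methylation in somatic cells, were higher in 10 of 12 tested and lower in 0 (31 listed, 28 on the array; highest adjusted p 1.57e-08; median 1.84, or 1.06 with undetected members at their bound), and the 10 became 5 without background correction. Tdrd12, a piRNA pathway gene, had 12.01, 11.82, 11.70 and 11.66 on ES arrays, against 4.72, 4.74, 4.56 and 5.03 on MEF arrays, and was at least 65.9-fold higher (adjusted p = 4.39e-19). Tex14, of intercellular bridges, was at least 13.9-fold, and Piwil2, a Piwi protein gene, at least 4.90-fold higher. Only 12 of the 28 on the array passed the filter, and the probes of the others were detected on fewer than 4 of the 16 arrays. Of the 12, 11 were detected on all ES arrays and no MEF array. Such a gene could pass only through arrays where it was brighter, so the filter favoured this direction.

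RNA-binding regulators were called in both directions, beside 24.2% higher and 24.3% lower among all tested genes. Of 36 listed, 32 were on the array and 27 tested, with 11 higher and 6 lower (highest adjusted p 1.69e-09; median 0.92, or 0.88 with undetected members at their bound). Dnd1, a germ cell RNA-binding gene, had 10.76, 10.74, 10.48 and 11.04 on ES arrays, against 5.63, 5.72, 5.80 and 6.18 on MEF arrays, a change of 4.92 ± 0.15 (SE; adjusted p = 3.56e-15). Rbms3, found in connective tissue, changed by -5.88 ± 0.20 (SE; adjusted p = 1.28e-14), the muscleblind splicing genes Mbnl1 and Mbnl2 by -4.50 and -2.19, and Celf2 by -4.10. At the brightest kept probe of each gene, ribosomal protein genes were nearly level, with 1 of 24 tested higher and 0 lower (38 listed, 26 on the array; median 0.33, or 0.30 with undetected members at their bound). That gene was Rpl4, at 1.22 ± 0.10 (SE; adjusted p = 4.92e-09). Other kept probes of some genes counted as level were higher in ES cells, by up to 2.03, while others stayed within the 2-fold limit. The level result therefore depends on the choice of probe.

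Immediate early genes, which serum and stress induce within minutes, were lower where called. Of 27 listed, 26 were on the array and 20 tested, with 0 higher and 11 lower (highest adjusted p 4.0e-07; median -1.29). Fos had 6.22, 6.22, 6.60 and 6.59 on ES arrays, against 11.60, 11.24, 11.16 and 10.92 on MEF arrays, a change of -4.82 ± 0.18 (SE; adjusted p = 4.78e-14). Egr1 changed by -3.64 ± 0.24 (SE; adjusted p = 1.84e-10), Egr2 was at least 8.63-fold lower, and Jun changed by -2.84 ± 0.25 (SE; adjusted p = 9.95e-09). Serum differed between the media, at 15% for ES cells and 10% for MEF. Junb, at -1.04 with all arrays, lost its call without ES replicate 5, at -0.90, and fell just under the fold limit without MEF replicate 2.

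Interferon response and antigen presentation genes were lower in 18 and higher in 4 of 36 tested (45 listed, 43 on the array; highest adjusted p 3.88e-04; median -1.13). Gbp2, an interferon-induced GTPase gene, changed by -3.14 ± 0.19 (SE; adjusted p = 5.86e-11) and the peptide transporter gene Tap2 by -2.92 ± 0.13 (SE; adjusted p = 1.01e-12). Isg15 had 9.55, 9.11, 9.68 and 6.72 on ES arrays, against 11.53, 11.60, 11.41 and 11.25 on MEF arrays. It changed by -2.68 ± 0.45 (SE; adjusted p = 2.79e-05), and by -2.0 without ES replicate 5. Ifit3 changed by -2.43, and by -1.58 without that array. B2m, the light chain gene of class I molecules, changed by -2.07 ± 0.17 (SE; adjusted p = 2.56e-09). The exceptions were Ifitm1 (at least 3.52-fold higher), Oas2 (at least 1.97-fold higher), Oas1g (2.05) and Irgm1 (1.33). Kept probes of Irgm1 were called in both directions, and the mean of its probes gave -0.89.

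Chemokine and cytokine genes were lower in 17 and higher in 2 of 26 tested (34 listed, 33 on the array; highest adjusted p 5.70e-04; median -1.71, or -1.38 with undetected members at their bound). Cxcl12, the ligand that stromal cells use to hold blood stem cells, had 7.41, 6.83, 7.42 and 6.88 on ES arrays, against 13.41, 13.48, 13.72 and 13.67 on MEF arrays, a change of -6.43 ± 0.13 (SE; adjusted p = 2.07e-17). Cxcl15 was at least 32.1-fold lower, and Tnfrsf11b, the decoy receptor osteoprotegerin, changed by -5.03. Ccl8 changed by -2.61, and by -1.88 without ES replicate 5. Ccl3 changed by -1.19 and lost its call without that array, at -0.94. The median deviation of ES replicate 5 over the list was -0.50, and 8 of the 9 tested macrophage markers, with the levels given below, were lower in ES cells too. Their part in this result was not tested. Il1b and Il1a were higher, by at least 3.82-fold and 1.56-fold.

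**Figure D5:**
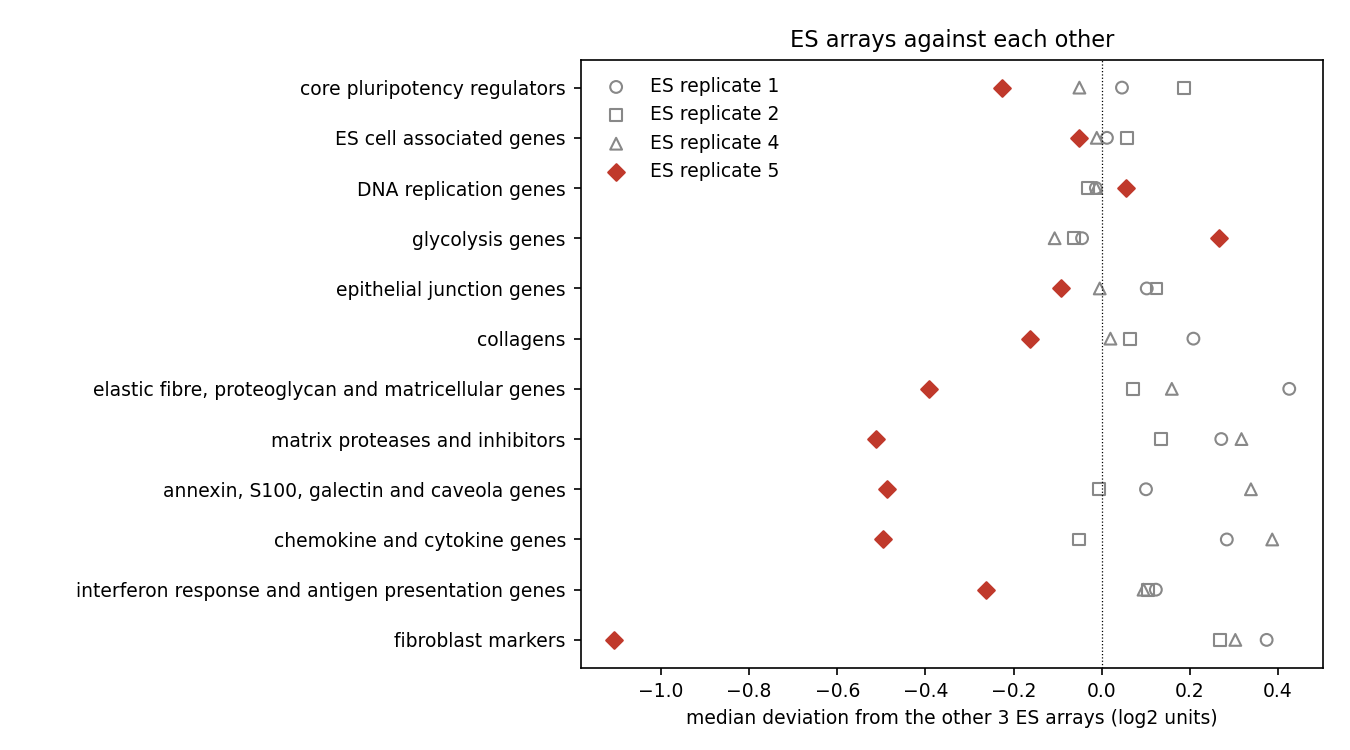
Median deviation of each ES array from the mean of the other 3 ES arrays, in log2 units, over the tested genes of 12 lists, 1 row per list, with a separate symbol for each ES replicate. ES replicate 5 lies at -1.11 for the fibroblast markers and at 0.27 for glycolysis genes, and at -0.23 for core pluripotency regulators.

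Genes of cell types other than ES cells and fibroblasts were read on all arrays. The macrophage markers on the array summed to 8880 to 12217 on the ES arrays, against 21353 to 22772 on the MEF arrays. Of the 12 markers, 7 were detected on 0 ES arrays, and most of the sum on the ES arrays came from the probe of Laptm5. C1qb had 4.86, 5.25, 5.08 and 4.80 on ES arrays, against 10.70, 10.90, 10.55 and 10.69 on MEF arrays, and was at least 33.03-fold lower. C1qa and C1qc were at least 9.40-fold and 34.1-fold lower, the mannose receptor gene Mrc1 changed by -3.25, and Laptm5 was not called (0.19). The general leukocyte gene Ptprc and the macrophage genes Itgam and Fcer1g were detected on 0 arrays of both groups. How much of the MEF profile came from such cells was not tested.

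Markers of other lineages were mixed. Of the endothelial markers, which summed to 7062 to 7325 on the ES arrays, against 1235 to 1428 on the MEF arrays, Pecam1 was at least 19-fold higher in ES cells, which are known to carry it, and Esam at least 4.27-fold higher. Egfl7 rose by 3.02, while Emcn was at least 2.34-fold lower and Cdh5, Kdr and Tie1 were detected on 0 arrays of both groups. Most of the endothelial sum on the ES arrays came from the probe of Egfl7. The fat, cartilage and bone markers summed to 1982 to 2370 on the ES arrays, against 14599 to 15835 on the MEF arrays, with Lpl at -4.52, and Pparg at least 4.60-fold and Sox9 at least 1.72-fold lower. Alpl of the same list rose, as described above, and Col2a1 (0.03) and Sp7 (-0.52) were not called. The neural markers summed to 376 to 478, against 2173 to 2557 in MEF, with Ncam1 at -4.52 and Nes at -2.31. Muscle markers summed to 550 to 705, against 1990 to 2292 in MEF, with Acta1 at -2.80. Keratinocyte markers summed to 742 to 886, against 1060 to 1186 in MEF, with Krt14 at -3.15. Red blood cell markers summed to 246 to 329, against 160 to 183 in MEF, with Slc4a1 at least 2.17-fold higher in ES cells. All 6 of them were detected on 0 MEF arrays and 4 on 0 ES arrays, so the MEF sum holds undetected levels alone. Of the neural, muscle and keratinocyte markers, 6 of 9, 6 of 9 and 5 of 7 were detected on 0 ES arrays. On 0 MEF arrays were 6, 4 and 5 of them.

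Markers of other lineages of the early embryo were also read. The trophoblast markers summed to 6345 to 7579 on the ES arrays, against 467 to 509 on the MEF arrays, and 7 of the 11 were detected on 0 ES arrays. Most of the sum on the ES arrays came from the probe of Tfap2c. Tfap2c, a factor of trophoblast and germ cells, had 12.46, 12.41, 12.54 and 12.44 on ES arrays, against 4.83, 4.75, 5.01 and 4.75 on MEF arrays, and was at least 104-fold higher, and the X-linked homeobox gene Rhox9 was at least 13.04-fold higher. Cdx2, the defining trophoblast factor, was detected on 0 arrays of both groups, and Tfap2a was at least 2.65-fold lower. The markers of the primed epiblast and of gastrulation summed to 7627 to 8204, against 693 to 826 in MEF. Of these 11 markers, 6 were detected on 0 ES arrays, and most of the sum on the ES arrays came from the probe of Dnmt3b, whose levels are given above. Otx2 was at least 16.9-fold and Pou3f1 at least 7.88-fold higher. Fgf5 and the gastrulation gene Gsc were lower (-1.89 for Gsc). The primitive endoderm markers summed to 1863 to 2558, against 6232 to 6722 in MEF. Of these 10 markers, 5 were detected on 0 ES arrays and 6 on 0 MEF arrays. Most of the sum came from the probe of Lama1 on the ES arrays and of Dab2 on the MEF arrays. Gata6 changed by -2.56, Dab2 by -3.22 and Pdgfra, which is also on the fibroblast list, as above. Lama1 rose by 4.11 and Sox7 was at least 1.74-fold higher.

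Promoters of the genes that differed most had lower CpG ratios than those of all tested genes. The ratio of observed to expected CpG in the 300-base windows had a median of 0.435 for the 200 largest rises and 0.488 for the 200 largest falls, against 0.734 for all tested genes. AAGGTCA, the site of Esrrb, was in 3.47% of windows of the largest rises and 4.65% of those of the largest falls, against 3.21% of all windows. These shares describe genes chosen by their change, and windows of a gene with several starts overlap in part.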

How the data were processed

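Expression was measured on Illumina BeadChip arrays, 4 each for ES cells, iPS cells, OKM cells and MEF, of which the ES and MEF arrays are compared here. The authors deposited a table of probe intensity that was not normalized, with a detection p-value per probe and array, per the file headers. Software named in the submitters' processing notes is GenomeStudio, with no version or role. The authors also deposited a table of normalized intensity, whose method is not given in the sources used here.

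Values were corrected for background with normexp from the detection p-values (offset 16), quantile normalized and taken to log2 (limma 3.58.1, R 4.3.3; summaries with Python 3.11.15 and pandas 2.3.3). Of 25697 probes, 13782 were kept, which 4 or more of the 16 arrays detected (detection p-value below 0.01), and the brightest kept probe stood for each gene, which left 9455 of 16590 genes. Group means were fitted over all 16 arrays, and ES minus MEF was tested with limma's moderated test and Benjamini-Hochberg adjustment. The fit was tested on simulated data. Raw medians were 115.5 to 130.8 on ES arrays and 121.3 to 126.7 on MEF arrays, and the number of arrays limits the precision.

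For a gene detected on 0 of 4 arrays of a group, the level there was set, on each array, to the higher of its own level and the dimmest detected probe of that array, which gives the fold written as "at least". Summed marker levels add linear values over the list's probes.

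The named genes were the classic pluripotency and fibroblast genes, the 20 largest called rises and falls whose arrays did not overlap, the 6 largest calls of each list in each direction with those against the list's majority, and all marker and sex chromosome genes. Members and lists were chosen with earlier results of these data known, and these further genes after their values were seen: Aebp2, Axin2, B2m, Ccl3, Ccl8, Cdh2, Cdkn1b, Dusp4, Dusp6, Eed, Egfr, Eras, Etv5, Ezh2, Fgf15, Gbx2, Grem1, Hoxb7, Id1, Igf1, Il6st, Jam2, Junb, Klf2, Klf5, Mmp3, Mybl2, Phf19, Rbbp7, S100a6, Socs3, Srf, Stat3, Suz12, Tbx3, Tcl1, Tgfb1, Tgfbr1, Zeb1 and Zeb2. Alternatives covered background, normalization, filter, probe choice, threshold, weights, blocks and leaving out each array. Probe names follow the platform annotation updated through RefSeq, and probes may not separate near-identical genes.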

Additional observations from a re-analysis of the deposited data

Results flagged for a closer look

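Single arrays stood far from the other 3 of their group, by a gap over Dixon's critical share of the group's range, in 37 groups of values among the 269 genes named, each with an ES and a MEF group. Chance marks about 1 in 20 groups in this way. ES replicate 5 was the array that stood apart in 23 of these groups. It was the lowest ES array for 18 genes, on the log2 scale Adh1 (4.68), Aldh1l2 (6.45), Ccl3 (6.47), Cdkn2a (7.82), Col6a1 (8.32), Ifit3 (5.43), Itga2 (5.60), Klf5 (13.62), Lefty1 (12.12), Lum (5.21), Mgp (5.34), Mmp3 (10.14), Otx2 (9.38), Spry4 (8.82), Tex14 (9.13), Thy1 (10.19), Twist1 (6.45) and Vim (11.15). Genes of the pluripotent state (Lefty1, Otx2 and Klf5) are among them beside fibroblast genes such as Lum, Thy1 and Vim. It was the highest ES array for 5 genes, Bmp7 (8.44), Cox7a1 (11.88), Eras (10.47), Itga3 (9.44) and Wnt7b (8.89). Its summed fibroblast marker level of 4756 also lay below the 11206 to 11896 of the other 3 ES arrays.

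The remaining gaps were scattered. ES replicate 1 was the lowest for Itga6 (5.67) and Tdgf1 (7.33). ES replicate 2 was the highest for Chek1 (8.29). ES replicate 4 was the lowest for Capn6 (5.09) and Pold2 (12.24). MEF replicate 1 was the highest for Zeb1 (11.07). MEF replicate 1 was the lowest for Cbx7 (5.43). MEF replicate 2 was the highest for Fgf15 (5.52), Junb (11.17) and Tagln (11.79). MEF replicate 3 was the highest for Rhox9 (4.46). MEF replicate 4 was the highest for Bmp7 (4.95), Il1b (4.60) and S100a8 (4.77). ES replicate 2 had 49.0% of probes detected, the highest share among the ES arrays.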

How the results depend on the processing

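Of 252 called genes named in the text, 224 kept their direction and call under all 22 alternative settings, 27 lost the call under at least 1 of them, and Irgm1 reversed, to -0.89 with the mean of its kept probes. No background correction ended most of these calls (25 genes, named above). Of 17 uncalled genes, 4 passed the threshold under some setting (Myc, Stat3, Mmp3 and Axin2). Reversals among them were Laptm5, at -0.033 with cyclic loess, Ddx3x, at 0.013 within the first 8 arrays of the deposited table and at -0.44 to 0.15 with 1 array left out in turn, and Col2a1, at -0.035 within those first 8 arrays, -0.00719 with the mean of its kept probes and -0.11 to 0.13 with 1 array left out in turn. The median change of all genes was -0.06 with cyclic loess and 0.05 with an offset of 1.

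With an adjusted p under 0.05 and no fold limit, 3966 genes were higher and 3759 lower. Other settings kept both counts within 1.5 times of 2286 and 2299, with 2267 to 2310 higher and 2276 to 2316 lower when 1 array was left out. Genes at least 8-fold apart numbered 762 to 830 with 1 array left out, 1229 with an offset of 1, 348 without background correction and 1261 in the authors' normalized table. Genes detected in ES cells alone numbered 716 to 760, and in MEF alone 550 to 616, with 1 array left out. At a detection p under 0.001 they numbered 324 in ES cells alone and 1305 in MEF alone, and the cause was not tested. With 100 genes in place of 200, windows with the octamer made up 11.7% of the largest rises and 7.78% of the largest falls, with the TATA box 11.7% and 21.1%, and with the CArG box 0% and 5.56%.

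For the replicate numbers shared by the groups (1, 2 and 4), the deviations of the ES and MEF arrays correlated at -0.42, 0.11 and -0.14. These few values, without those of unlike numbers beside them, cannot decide whether the numbers pair the arrays. The main fit used no pairing. With the number as a replicate block, 2260 genes were higher, 2290 lower and 760 at least 8-fold apart. Signal over background limits dim genes, for which only bounds are given, and p-values cover the spread between dishes of 1 line and strain per group.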

Other observations

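Some gene families, chosen after their values were seen and mostly outside the lists, held many genes called higher. Of 14 nucleoporin genes tested, 11 were higher in ES cells and 0 lower (median 1.77), led by Nup210, a nuclear pore membrane protein gene, at 5.95. Of 12 Lsm genes, whose products bind small nuclear RNAs and decaying mRNA, 7 were higher and 0 lower (median 1.11). Of 8 RNA exosome genes, 6 were higher and 1 lower. Of 70 mitochondrial ribosomal protein genes, 20 were higher, close to the share among all tested genes, and 0 lower (median 0.58). Of 9 tissue kallikrein genes, 8 were higher and 0 lower (median 2.75), and their probes may read near-identical copies. These counts stand beside 24.2% of all tested genes called higher and 24.3% called lower.

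Other families, chosen in the same way, held many genes called lower. All 8 prolyl hydroxylase genes tested (P3h and P4h), whose enzymes modify collagen, were lower in ES cells (median -1.60). Of 9 carbohydrate sulfotransferase genes, which finish proteoglycan chains, 7 were lower and 0 higher (median -1.42). Of 25 sorting nexin genes, 11 were lower and 0 higher (median -0.85), and of 7 caspase genes, 5 were lower and 0 higher (median -1.30). Of 8 cadherin genes, Cdh1 was the 1 that was higher and the other 7 were lower, and some of these genes are also on the lists above. No test was run on these families, since they were picked for how they moved.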
